A study of Drosophila melanogaster with 2 samples.

Results

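Peaks of the zinc-finger protein CG10348 were examined at 10 genes of the Notch pathway in Drosophila melanogaster: the receptor gene N, the ligand genes Dl and Ser, the modifiers fng, kuz, neur, mib1 and numb, and the nuclear genes Su(H) and H. A peak was assigned to a gene when its summit lay inside the gene, or when the nearest protein-coding transcription start site (TSS) was that gene's and lay within 10 kb. By this rule 9 of the 1814 peaks of the conservative list belonged to 7 of the 10 genes, and Ser, Su(H) and H had none. The genes were chosen from measured peaks of these same samples, so the positions, signals and counts at these genes are described without tests.

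The material was whole pupae aged 2 days from transgenic flies, strain CG10348-GFP, whose inserted transgene expressed CG10348 fused to eGFP, and chromatin was precipitated with anti-GFP antibody. There were 2 biological replicates, all in 1 group, with no second genotype, stage or treatment. CG10348 is a predicted C2H2 zinc-finger protein. Whole pupae mix all tissues of the animal, so a signal cannot be placed in any cell type.

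Notch signalling acts between touching cells. A ligand on the surface of a neighbouring cell, Delta or Serrate, is pulled into that cell after ubiquitination, which exposes the Notch receptor to cleavage, first by the metalloprotease Kuzbanian and then by gamma-secretase. The freed intracellular domain enters the nucleus, joins the DNA-binding protein Suppressor of Hairless and turns on targets such as the Enhancer of split genes. In the pupa the pathway is known for spacing the sensory bristles, for assigning the fates of their cells, and for shaping wing veins and the eye.

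Signal is the peak strength that the authors deposited, in units whose scaling was not stated, and it ranks regions within a list. The irreproducible discovery rate (IDR) measures how poorly a region's rank repeats in a pair of lists, and the thresholded lists ended at an IDR of 0.01. The authors thresholded 1814 conservative peaks, 1934 optimal peaks, 1284 peaks of replicate 1 and 1027 peaks of replicate 2, and ranked 138658 regions in the longer list from which the conservative peaks came. Another pooled ranked list held the optimal peaks. Neither pooled ranked list was labelled with the pair it ranks, and they were matched to the conservative and optimal lists by the peaks they held. A high IDR in the one behind the optimal list is therefore not read as disagreement between the 2 replicates. No list gave read counts, so depth was unknown and no sampling interval was formed.

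The receptor gene N (FBgn0004647, chrX:3134870-3172221, plus strand, dm6) carried a single peak deep in the gene. It spanned chrX:3162386-3162721 in a 4.25 kb intron, with its summit 27684 bp downstream of the only annotated TSS of N. The nearest TSS of any protein-coding gene was that of CG18508, 10586 bp away and beyond the 10 kb limit, so the peak belonged to N by position inside the gene alone. The signal was 57.0 in replicate 1, 48.7 in replicate 2 and, pooled, 95.2, where it ranked 767 of 1814. Both replicates' own thresholded lists held it, with summits 86 bp apart, and the replicate ratio was 1.17-fold. The conservative IDR was 0.000542. Of the 52 ranked regions at N this was the strongest, 7.11 times their median of 13.4, and the next strongest, also intronic, had a signal of 46.7 and an IDR of 0.0206. The 201 bp centred on the summit, chrX:3162454-3162654, are shown as an AT-rich peak. This and the other sequences are the plus strand of dm6, 5′ to 3′, from the RefSeq genome. In the N sequence and in those at numb and neur the capitals mark TTAAAA or the hexamer AAATAT on either strand. One or both hexamers were in the central windows of N peak 1, numb peak 2 and both neur peaks.

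N peak 1: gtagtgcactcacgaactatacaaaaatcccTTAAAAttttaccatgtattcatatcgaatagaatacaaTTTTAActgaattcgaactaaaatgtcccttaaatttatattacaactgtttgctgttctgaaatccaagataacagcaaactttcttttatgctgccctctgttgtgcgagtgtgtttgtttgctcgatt

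The central 100 bp of this sequence were 28.0% G and C, against 52.0% in windows centred 300 bp to each side. They held TTAAAA and a GATA-type match. No Suppressor of Hairless site was in that window.

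Of the ligand genes, Dl had a peak and Ser did not. Dl (FBgn0000463, named Delta in the annotation, chr3R:19302731-19326217, minus strand) encodes Delta, a transmembrane ligand of Notch. Its conservative peak at chr3R:19321822-19322157 lay in a 5.35 kb intron, 4227 bp downstream of the TSS. The signal was 52.9 in replicate 1, 26.2 in replicate 2 and 79.5 pooled. The replicates thus differed 2.02-fold, and the region entered the thresholded list of replicate 1 (score 919, where 830 is the lowest accepted) but not that of replicate 2 (score 480). As a log2 ratio of replicate 1 over replicate 2 this was 1.01, whereas the 1779 conservative peaks measured in both had a median ratio of 0.28 (SD 0.47). Replicate 1 listed a further region that overlapped the first by 112 bp, with a signal of 9.17, 5.77-fold weaker, and a summit 218 bp away.

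The Dl sequence, chr3R:19321890-19322090, is shown because it differed in kind from those at N, numb and neur. Its capitals mark runs that contain GAGAGAG, a motif of the GAGA-factor type that was searched for after this sequence had been seen.

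Dl peak 1: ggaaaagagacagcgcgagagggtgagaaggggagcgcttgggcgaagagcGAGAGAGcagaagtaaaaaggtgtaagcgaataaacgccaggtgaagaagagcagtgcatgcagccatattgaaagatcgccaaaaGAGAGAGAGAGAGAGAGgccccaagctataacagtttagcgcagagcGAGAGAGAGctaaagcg

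The central 100 bp were 46.0% G and C, above the 36.5% of the flanks. GAGAGAG or its reverse complement was in 20 of all 1799 conservative summit windows on the main chromosome arms (1.11%), and at the 9 assigned peaks only in that of Dl. The upstream region of Dl also held a region short of the threshold, 4844 bp before the TSS, with a signal of 48.0 (27.7 and 22.0 in the replicates) and an IDR of 0.0180.

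Ser (FBgn0004197, chr3R:27172090-27194267, minus strand) encodes the other ligand, best known at the dorsoventral boundary of the wing. Its strongest region, in an intron 12714 bp downstream of the nearest Ser TSS, had a pooled signal of 53.5 and signals of 29.9 and 22.1 in replicates 1 and 2. The IDR was 0.0148, the nearest miss among the regions of the 10 genes. On the other side of the threshold, the assigned conservative peak closest to it was in kuz, with a signal of 55.9 and an IDR of 0.00870. The regions of Ser and kuz thus lay on opposite sides of the threshold with pooled signals of 53.5 and 55.9. Their signals were 29.9 and 27.3 in replicate 1, and 22.1 and 26.7 in replicate 2.

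**Figure D1:**
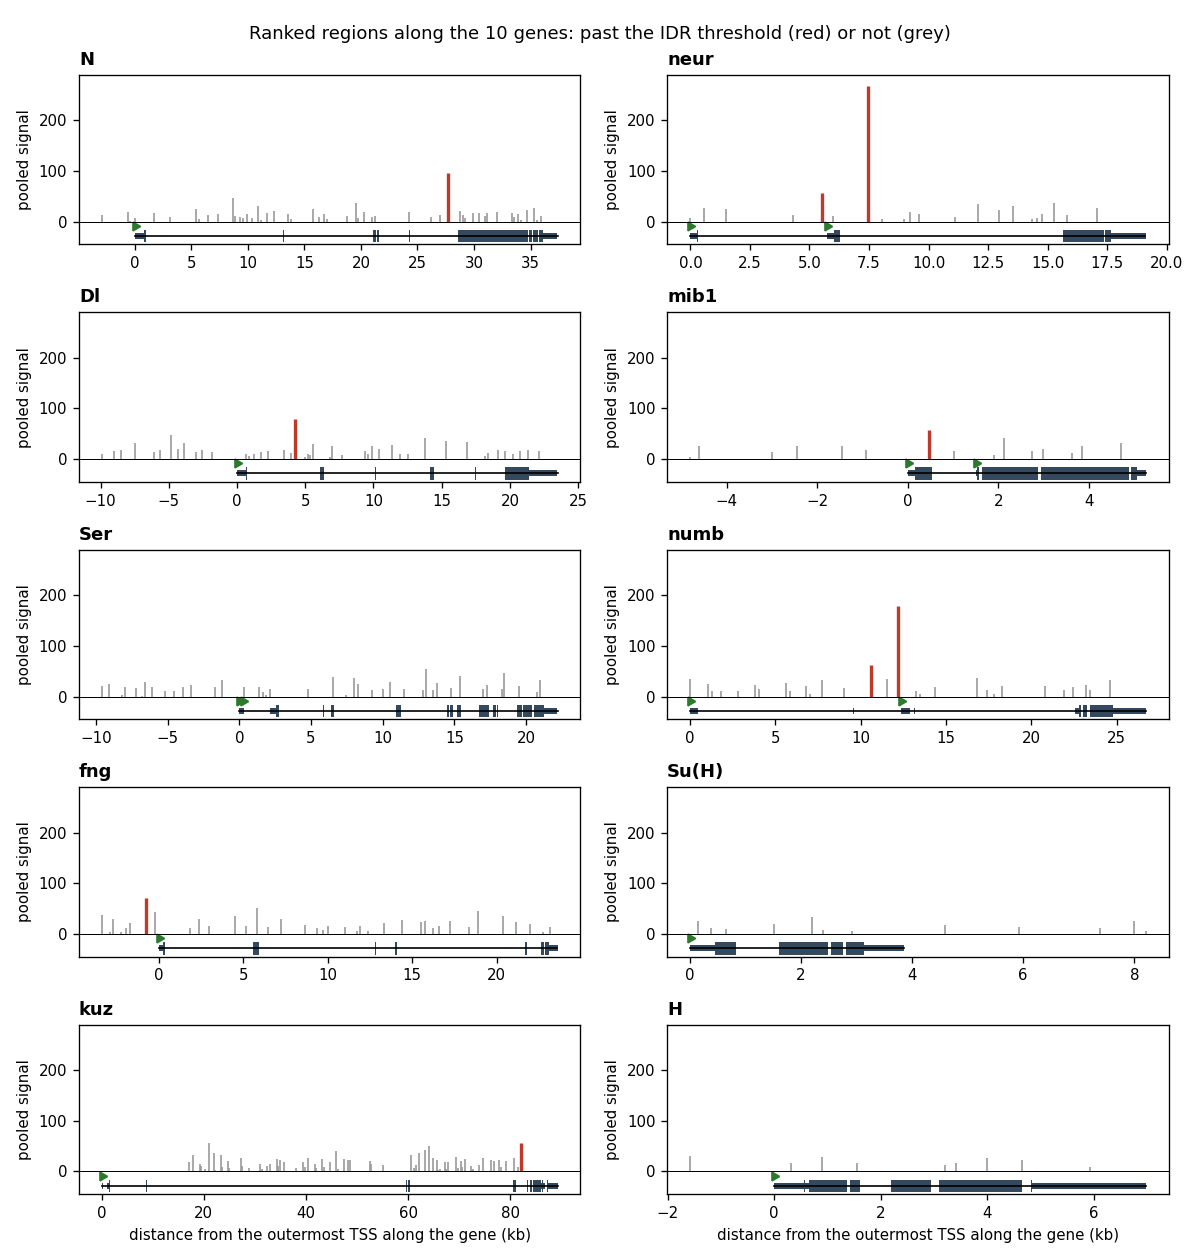
Pooled signal (vertical axis, authors' scale) of every ranked region along the 10 genes, against distance in kb from the outermost TSS in the direction of transcription. Red lines passed the IDR threshold and grey lines did not, thin and thick boxes are exons and coding sequence, and green triangles are TSSs. The neur peak of 268 and the numb peak of 179 stand well above the other regions of their genes, while Ser, Su(H) and H have no red line.

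fng (FBgn0011591, chr3L:20925891-20949512, minus strand) encodes Fringe, the glycosyltransferase that extends O-fucose on Notch and shifts its response from Serrate towards Delta. Its peak was the only 1 of the 9 outside a gene, 772 bp upstream of the TSS. The lncRNA:CR45243 gene lay 75 bp from the summit. The signal was 29.7 in replicate 1, 44.7 in replicate 2 and 72.1 in the pooled list. Replicate 2 was the higher, with a log2 ratio of -0.59, which was the reverse of every other assigned conservative peak with a region in both replicates. Only the thresholded list of replicate 2 held the region, and in replicate 1 its score was 735.

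The central 100 bp at the summit were 24.0% G and C and the flanks 55.0%, the widest drop of the 9 peaks, and they held TAATTA, the core of many homeodomain sites. A coding exon of fng held the strongest region that did not pass, with a signal of 50.5 and an IDR of 0.0264.

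The ubiquitin ligase genes neur and mib1, whose products mark the ligands for internalization, both had a conservative peak. neur (FBgn0002932, chr3R:9020348-9039471, minus strand), which is active in sensory organ precursors, had the strongest peak of the 10 genes. neur peak 1, at chr3R:9031924-9032067, had a signal of 159.7 in replicate 1, 104 in replicate 2, and 268 in the pooled list, rank 99 of 1814. Both thresholded lists held it, the summits were 38 bp apart, and its IDR was 1e-05, the lowest value that the lists give. It spanned only 144 bp, whereas 1624 of the 1814 conservative peaks spanned 336 bp. It lay in a 9.33 kb intron of the transcripts from the inner start, and in a 15.3 kb intron of those from the outer, 1724 bp downstream of the inner of the 2 neur TSSs and 7464 bp from the outer. Its signal was 16.9 times the median of the 21 ranked regions of neur.

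neur peak 2, at chr3R:9033772-9034107, was 1933 bp away on the other side of the inner TSS, 209 bp upstream of it, in the same 15.3 kb intron of the transcripts from the outer start. Its signal was 37.5 in replicate 1, 23.7 in replicate 2 and 57.3 in the pooled list, with an IDR of 0.00676. Neither replicate's thresholded list held it. The inner start site was therefore flanked by a strong and a weak peak, and the outer start site, 5740 bp further upstream, by none. Both sequences are given, 201 bp for the strong peak (chr3R:9031907-9032107) and 101 bp for the weak one (chr3R:9033890-9033990), because the inner start site was the nearest TSS to both summits. Which start site either peak acts on was not tested.

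neur peak 1: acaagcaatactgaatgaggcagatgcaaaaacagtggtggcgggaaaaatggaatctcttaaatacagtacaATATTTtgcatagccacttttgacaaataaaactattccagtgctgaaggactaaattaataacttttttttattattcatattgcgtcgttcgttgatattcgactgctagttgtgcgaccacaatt
neur peak 2: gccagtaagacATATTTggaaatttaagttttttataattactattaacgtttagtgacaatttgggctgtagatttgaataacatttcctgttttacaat

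The summits were alike in composition, 26.0% and 27.0% G and C, with flanks of 42.5% and 42.0%. AAATAT or its reverse complement was in both central windows, and TAATTA in that of neur peak 2.

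mib1 (FBgn0263601, chr3L:16006552-16011812, minus strand) encodes Mind bomb 1, the ligase that acts on both ligands in many tissues. Its peak at chr3L:16011166-16011501 was the only assigned summit in a coding exon, 478 bp downstream of the outer TSS. The pooled signal was 56.5 and the IDR 0.00738. Replicate 1 had a signal of 27.4 with a score of 302, and the replicate's own ranked list of replicate 2 had no region there. No replicate ratio was therefore formed from these lists. The unnamed paired signals of the pooled ranked list were not used, so an absence of signal in replicate 2 is not shown. The optimal list did not hold this peak, and in the pooled ranked list behind that list its IDR was 0.293. The central 100 bp were 67.0% G and C, the highest of the 9, and the flanks 47.0%. The 101 bp at its summit, chr3L:16011284-16011384, are shown beside those of the kuz peak, chr2L:13632116-13632216, as the G and C rich pair.

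mib1 peak 1: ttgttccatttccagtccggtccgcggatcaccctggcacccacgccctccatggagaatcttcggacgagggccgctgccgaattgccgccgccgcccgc
kuz peak 1: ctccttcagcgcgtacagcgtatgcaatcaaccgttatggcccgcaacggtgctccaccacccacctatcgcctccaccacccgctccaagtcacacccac

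Neither sequence held TTAAAA, the hexamer AAATAT, the homeodomain core TAATTA or any of the other letters sought in its central window.

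kuz (FBgn0259984, chr2L:13550139-13639411, plus strand), which encodes the metalloprotease of the first ligand-dependent cleavage, was the longest of the 10 genes at 89.3 kb. Its conservative peak, chr2L:13631998-13632333, lay in a 2.21 kb intron 82027 bp downstream of the kuz TSS. The nearest protein-coding TSS was that of ics, 9106 bp away, and lncRNA:CR43410 lay 510 bp from the summit. The signal was 27.3 in replicate 1, 26.7 in replicate 2 and 55.9 in the pooled list, the lowest of the 9 peaks. The replicates were nearly equal, with a log2 ratio of 0.03, but the scores of the region in their own ranked lists were 62 and 23, and neither thresholded list held it. The central 100 bp were 61.0% G and C, against 29.5% in the flanks.

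The optimal list called a different kuz region, chr2L:13570909-13571244, in a 51.0 kb intron 20938 bp downstream of the TSS. Its pooled signal of 56.8 was as high as that of the conservative peak. The replicates were far apart, with 51.0 in replicate 1 and 11.6 in replicate 2, a 4.38-fold ratio that was the widest among the assigned regions. Its IDR was 0.00690 in the pooled ranked list that held the optimal peaks and 0.729 in the list that held the conservative ones. The conservative kuz peak had 0.00870 in the conservative ranked list and 0.0993 in the other. Each of the 2 kuz regions therefore rested on a different list, and no kuz region passed in both or in either replicate alone. The first ranked region of kuz lay 17171 bp into the gene.

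numb (FBgn0002973, chr2L:9437469-9464184, plus strand) encodes an endocytic adaptor that is inherited by one daughter cell at an asymmetric division and inhibits Notch there. It had the second strongest peak of the 10 genes. numb peak 1, at chr2L:9449492-9449827, had a signal of 101 in replicate 1, 82.5 in replicate 2 and 179 in the pooled list, rank 238 of 1814. The replicate summits were 29 bp apart, both thresholded lists held the region, and the IDR was 4.37e-05. Its summit lay 170 bp upstream of the inner numb TSS, in a 13.5 kb intron of the transcript from the outer start.

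numb peak 2, at chr2L:9447909-9448244, lay in the same intron, 1753 bp upstream of that TSS and 1583 bp from numb peak 1. It had 35.4 in replicate 1, 28.6 in replicate 2 and 62.2 in the pooled list. Its conservative IDR was 0.00386, but the other pooled ranked list gave 0.523, neither thresholded replicate list held it, and the optimal list did not. At numb, as at neur, the pair of peaks lay around or before an inner start site, here 12361 bp from the outer one, and the stronger peak was the one found in both replicates' lists. The sequences around that start site are shown for chr2L:9449560-9449760 and chr2L:9448027-9448127.

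numb peak 1: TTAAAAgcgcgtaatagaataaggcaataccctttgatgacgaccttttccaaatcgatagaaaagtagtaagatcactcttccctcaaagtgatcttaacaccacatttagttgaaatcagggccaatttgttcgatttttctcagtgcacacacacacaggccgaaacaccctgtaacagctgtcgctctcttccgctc
numb peak 2: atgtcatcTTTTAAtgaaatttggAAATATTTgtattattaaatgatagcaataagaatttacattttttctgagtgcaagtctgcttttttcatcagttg

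The central 100 bp were 37.0% G and C in numb peak 1 and 24.0% in numb peak 2, with flanks of 48.0% and 41.5%. numb peak 2 held TTAAAA with the hexamer AAATAT and a GATA-type match in that window, and the TTAAAA of numb peak 1 lay at the edge of the sequence, outside the central window.

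The nuclear genes showed no peak in any of the 4 thresholded lists. Su(H) (FBgn0004837, chr2L:15039488-15043334, plus strand) encodes the DNA-binding protein of the pathway. Its strongest region, in a coding exon, had a pooled signal of 33.0, with 15.8 in replicate 1 and 12.6 in replicate 2, and an IDR of 0.429. H (FBgn0001169, chr3R:20621938-20628915, plus strand) encodes Hairless, the adaptor that links Su(H) to co-repressors. The strongest region of H lay 1583 bp upstream, with 31.4 in the pooled list, 18.3 and 16.8 in the replicates and an IDR of 0.191. These best values were 2.62 and 1.82 times the medians of the ranked regions of Su(H) and H, the lowest multiples of the 10 genes. These genes also had the fewest ranked regions, 12 and 9, and a best value over a median tends to rise with their number. The multiples of mib1 (15 regions) and Ser (41 regions) were close, at 2.86 and 2.94. An unpassed threshold does not show that CG10348 was absent from these genes.

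**Figure D2:**
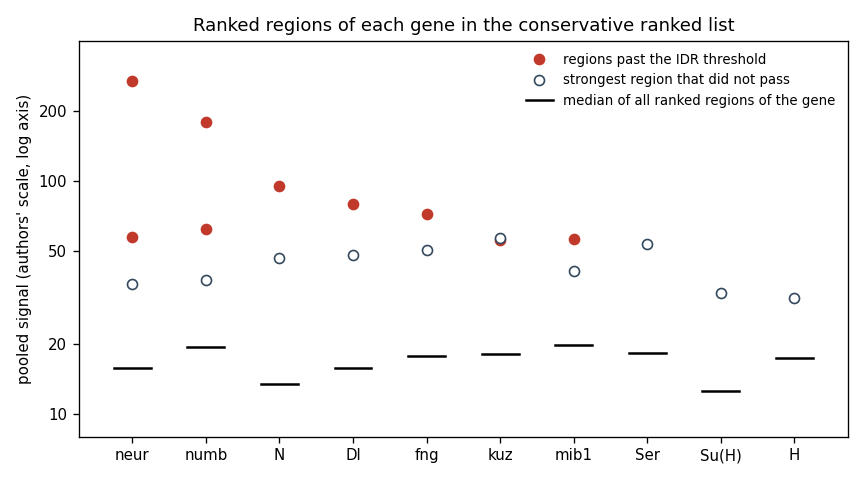
Pooled signal (log axis, authors' scale) of the ranked regions of each gene: peaks past the IDR threshold (red), the strongest region that did not pass (open circles) and the median of all regions (bars). The medians lie close together, the strongest unpassed region of kuz (56.8) lies above its peak (55.9), and the best region of Ser (53.5) lies just below both.

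The 333 ranked regions at the 10 genes had a median signal of 16.6, against 16.1 over all 138658 ranked regions. Of the regions at the 10 genes with a signal of at least 55.9, the level of the weakest assigned peak, 9 passed and 1 did not, the kuz region called in the optimal list. Over the whole ranked list, 291 of 1981 regions at or above that level did not pass (14.7%). The level was taken from the weakest assigned peak, so all 9 reached it by construction. These counts are therefore not compared.

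**Figure D3:**
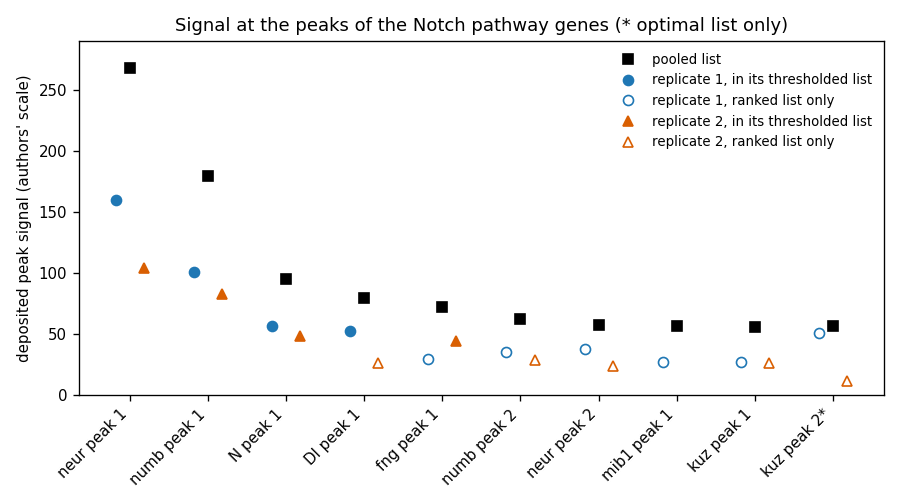
Deposited signal (authors' scale, linear axis from 0) of each assigned peak in the pooled list (squares), replicate 1 (circles) and replicate 2 (triangles), with filled symbols where the replicate's own thresholded list held the region. Only neur peak 1, numb peak 1 and N peak 1 are filled in both, and mib1 has no symbol for replicate 2, whose own ranked list held no region there.

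Among the assigned peaks, those with a higher pooled signal were in more of the replicates' thresholded lists. This order is not separate evidence, because the pooled signal was close to the sum of the replicate signals (median ratio 0.975, 8 peaks). The 3 with the highest pooled signal, 268, 179 and 95.2, were in the thresholded lists of both replicates. The next, Dl with 79.5 and fng with 72.1, were in the list of a single replicate, and the 4 peaks from 62.2 down to 55.9 were in neither. Over all 1799 conservative peaks on the main arms 784 (43.6%) were overlapped by a thresholded peak of both replicates and 521 by none, set beside 3 and 4 of the 9. The median pooled signal was 72.1 at the assigned peaks and 86.6 over all conservative peaks.

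The spread between replicates at the assigned conservative peaks was close to that over the whole conservative list. At the 8 peaks with a region in both, the median log2 ratio of replicate 1 over replicate 2 was 0.30 (SD 0.48), against 0.28 (SD 0.47) at 1779 conservative peaks. The median distance between replicate summits was 32.0 bp against 31.0 bp. For the assigned peaks of the optimal list the median log2 ratio was 0.62, with no value over that whole list beside it. Both replicates were called against the same control, which was not analysed here, and its part in their likeness was not tested.

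**Figure D4:**
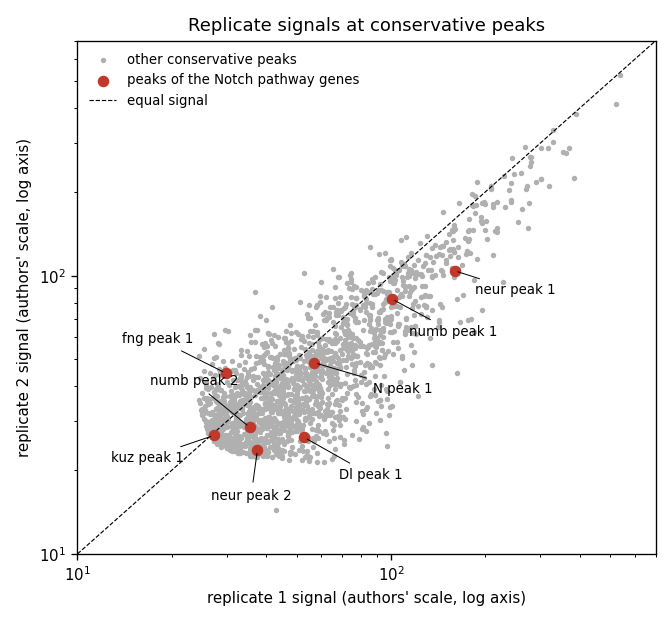
Signal in replicate 2 against replicate 1 (both log axes, authors' scale) at conservative peaks measured in both, with the 8 assigned peaks in red and a dashed line of equal signal. fng peak 1 lies above the line, kuz peak 1 on it, and the other red points below it, inside the cloud of grey points.

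Counted by gene, 7 of the 10 had an assigned conservative peak, where 1425 of 13945 protein-coding genes had one (10.2%). With the optimal list it was 6 of 10 against 10.6%. With replicate 1 alone it was 4 of 10 (N, Dl, neur and numb) against 7.72%, and with replicate 2 alone 4 of 10 (N, fng, neur and numb) against 6.45%. The genes had been selected on their peaks, so nothing follows from a share above the background. They are also long: the median span was 22.8 kb against 2.17 kb over all genes, and longer genes hold more summits. Among genes of at least 20 kb, 37.1% had a peak, and 5 of the 6 Notch pathway genes of that length did. Among shorter genes 8.11% had a peak, and 2 of the 4 shorter ones did, neur and mib1.

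By position, 7 of the 9 summits were intronic, 1 was in a coding exon and 1 upstream of a gene. Over all conservative summits 57.3% were intronic, 2.61% in coding exons and 33.8% intergenic. Within 1 kb of the nearest TSS lay 4 of the 9 (fng, mib1, and numb peak 1 and neur peak 2 at inner start sites), or 44.4%, beside 47.8% of all. The remaining 5, in N, Dl, kuz, neur and numb, lay within introns at 1724 to 82027 bp from the TSS of their gene.

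Base composition, which the rule had not used, differed between the summits. At 6 peaks (both of neur, both of numb, N and fng) the central 100 bp were 24.0% to 37.0% G and C and lay below their flanks. At Dl, mib1 and kuz they were 46.0%, 67.0% and 61.0% and lay above them. The mean was 37.8% (SD 16.6, 9 peaks), against 35.1% (SD 10.6) over all 1799 conservative peaks, of which 78.8% lay below their flanks and 10.3% exceeded 50%. Both kinds occurred among the 4 peaks in neither replicate's thresholded list: numb peak 2 and neur peak 2 at 24.0% and 27.0%, and mib1 and kuz above 50%. The 3 peaks in both lists lay at 26.0%, 37.0% and 28.0%.

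**Figure D5:**
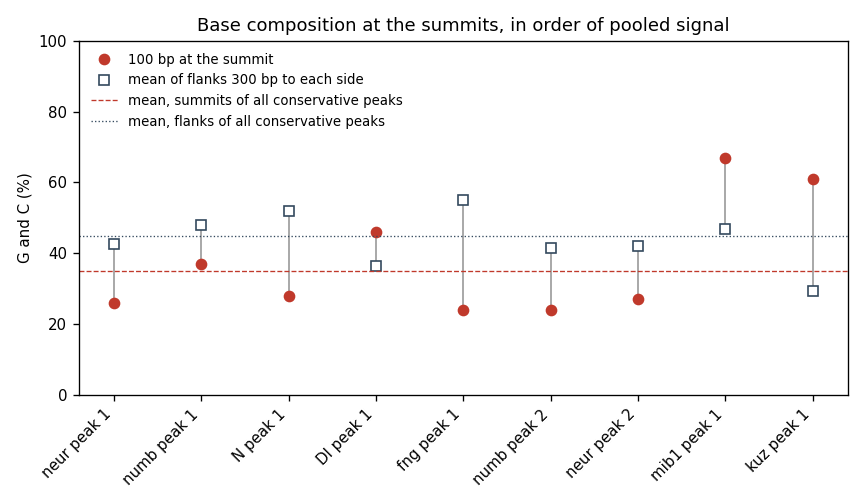
G and C share (percent, axis from 0 to 100) of the 100 bp at each conservative summit (filled) and of flanks centred 300 bp to each side (open), ordered by pooled signal, with the means over all conservative peaks as lines. Both peaks of neur and of numb, with those of N and fng, lie below their flanks, and Dl, mib1 and kuz lie above theirs.

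Letters were sought on both strands in the central 100 bp. The Suppressor of Hairless sites TGTGGGAA, CGTGGGAA, TGTGAGAA and CGTGAGAA were in none of the 9 windows and in 0.889% of all conservative windows. GATA-type letters were sought as TGATAA, with the variant AGATAA in which the first base changed, the variant TGATAG in which the last base changed, and the variant AGATAG in which both changed. They were in 2 windows, N and numb peak 2, against 21.6% of all. TAATTA was in 2, fng and neur peak 2, against 8.95%. TTAAAA was in 2, N and numb peak 2, against 31.9%, and AAATAT in 3, both neur peaks and numb peak 2, against 30.1%. Some of these letters can overlap, and a match is a description of the sequence and not a site.

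Other genes of the pathway, 60 in all listed by role, had an assigned conservative peak in 12 cases, beside 10.2% of all protein-coding genes. In the lists of replicates 1 and 2 alone, 8 and 6 of the 60 had one, beside 7.72% and 6.45%. The counts by role are small and stand beside the same 10.2%. They were not split by gene length, and the spans of these genes ran from 0.532 to 70.4 kb. This list too was set with earlier results known. None of the 4 gamma-secretase genes (Psn, nct, aph-1 and pen-2), which complete the cleavage that kuz begins, had a peak. These are short genes of 1.05 to 3.27 kb, and of all genes under 20 kb only 8.11% had one. Of the 3 genes that glycosylate Notch or supply sugars for it, rumi, a protein O-glucosyltransferase, had 58.1 (29.7 and 29.2 in replicates 1 and 2), in neither thresholded replicate list. Ugalt, a UDP-galactose transporter, had 932, with 523 and 414, which ranked 2 of the 1814 conservative peaks. It lay 39 bp upstream of the Ugalt TSS, and Ugalt had a peak in both thresholded replicate lists.

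Of 5 nuclear partners of Su(H) and H, 3 had a peak, and Su(H) and H themselves had none. Gene length differed: Su(H) and H span 3.85 and 6.98 kb, beside 69.2 kb for mam, 8.18 kb for gro and 14.6 kb for CtBP. The partners without a conservative peak, nej and insv, span 21.6 and 1.72 kb. Of all protein-coding genes under 20 kb, 8.11% had a peak, so no contrast is drawn. mam, the co-activator that binds the Notch and Su(H) complex, had 2 conservative peaks, of 203 and 182. The optimal list assigned 4 peaks to mam, and each replicate's thresholded list 3. The stronger conservative peak, with 114 and 92.0 in the replicates, lay in an intron 6525 bp from the nearest mam TSS, with a TSS of CG18371 closer to it. gro, the co-repressor Groucho, had 201 (111 and 91.7) in an intron 146 bp from its TSS, and was listed in both replicates. CtBP, the other co-repressor recruited through Hairless, had 80.3 (41.2 and 36.2) and was listed in replicate 1 alone. nej had a peak in the thresholded list of replicate 1 but none in the conservative list, and insv had none in either.

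Of 19 genes of endocytosis and sorting, which decide how long receptor and ligand stay at the surface, 3 had a peak. lgd (l(2)gd1 in the annotation), which limits ligand-independent Notch activation in endosomes, had 277 (163 and 116), 129 bp upstream of its TSS. aux, the auxilin needed for ligand internalization, had 142 (78.8 and 68.0) in an intron 2486 bp from the nearest aux TSS, with a TSS of CG14636 closer to it. Nedd4, a ubiquitin ligase that targets Notch, had 60.6 (29.6 and 26.8), was listed in neither replicate and was missing from the optimal list. Among 11 other modulators bib alone had a peak, with 64.5 (35.3 and 26.4) and no replicate listing.

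In the Bearded family, whose small proteins inhibit Neuralized, 2 of 8 genes had a peak: E(spl)m2-BFM with 89.2 (51.2 and 40.0), listed in replicate 2, and E(spl)malpha-BFM with 2 peaks of 76.1 and 68.0, listed in neither. Of 10 targets, E(spl)m3-HLH, a basic helix-loop-helix repressor, had 2 peaks of 106 and 59.3, and the stronger lay 269 bp upstream with 67.7 in replicate 1 and 31.2 in replicate 2. That region was in the thresholded list of replicate 1 and absent from the optimal list.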

How the data were processed

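CG10348-eGFP ChIP-seq of whole pupae (2 replicates, 1 group, separate biosamples per the labels) was taken from the lists the authors deposited on dm6. The deposited signal is the authors' peak strength, the deposited score is the authors' scaled IDR, capped at 1000, and the deposited −log10 values hold the IDR itself. Peak caller, aligner and signal scaling: not given in the sources used here. The deposited notes name a control common to both replicates, which was not analysed here. The lists hold no read counts, so depth was unknown. The 8 unnamed columns of paired signals in the ranked lists were not used.

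Summits were the deposited start plus offset, and coordinates are given from 1. Genes and TSSs came from Ensembl release 115, 13945 protein-coding genes on the main arms, and sequence from the RefSeq genome of the same assembly. Dl was matched by its identifier, since the annotation names it Delta, and 2 genes of the pathway list (nct and lgd) by a RefSeq synonym. A replicate's value is the strongest region in its own ranked list that overlaps the pooled peak by at least 1 bp. Base composition used the 100 bp at the summit and windows 300 bp to each side. Python 3.11.15, numpy 2.4.6 and matplotlib 3.10.9 were used, and 200 of 200 planted summits were assigned to their genes in simulated data.

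The members and lists were chosen with earlier results of these data known. All 10 genes were named, with those of the pathway list that had a conservative peak and neighbours of assigned peaks, and pathway genes without one were named only to complete a role. The sequence at the fng peak is not reported here. No test was run. Alternatives used the optimal list, each replicate's list alone, TSS limits of 5 kb and 20 kb, other assignment rules, stricter overlaps, other windows and an IDR of 0.001.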

Additional observations from a re-analysis of the deposited data

How the results depend on the processing

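With each replicate's thresholded list alone, the assigned peaks numbered 4 to 5 in place of 9, and the genes with a peak 4 in place of 7 with either replicate left out. Those of the other pathway genes numbered 6 to 8 in place of 12, and mean G and C at the assigned summits ranged from 30.2% to 39.6% around 37.8%. At an IDR of 0.001, which 803 conservative peaks met, 3 peaks, 3 genes (N, neur and numb) and 5 other pathway genes remained, and the median rank was 238 in place of 1198. With the optimal list the median rank was 1037. Counting only summits inside a gene left 6 other pathway genes. The remaining 27 of 39 alternatives moved a count by at most 1.5 times or a value by less than the spread. Only the median log2 ratio between replicates had a direction that could reverse. It stayed positive, from 0.29 to 0.62 around 0.30, with 0.62 for the optimal list. With nearest TSSs only, N and kuz lost their peak (7 peaks, 5 genes). No paired analysis was possible because the samples form 1 group. Depth was unknown, so no value here has a counting error.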
